A study of Mus musculus with 4 samples.

Results

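The proteasome genes of mouse hepatocytes were compared between vehicle and tamoxifen. They were taken as every protein-coding gene whose symbol is Psma, Psmb, Psmc, Psmd or Psme and a number, and 43 of the 22298 genes in the files met that rule. Within them, the 5 genes of the immune form (Psmb8, Psmb9, Psmb10, Psme1 and Psme2) were set against the other 38. RNA came from hepatocytes isolated from male wild-type C57BL/6 mice bought at 8 weeks of age and kept for 6 weeks on a methionine- and choline-deficient (MCD) diet, which models steatohepatitis. They then received vehicle (2 libraries) or 100 mg/kg tamoxifen in corn oil (2 libraries) by intraperitoneal injection for 5 days. Both groups therefore carried the diet, mice were pair-fed, and no library of mice on a normal diet was part of the comparison. Whether each library came from its own mouse is not stated, so the p-values below measure the spread between these libraries, which may be technical.

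The proteasome is the main protease of the cytosol and nucleus, and it degrades proteins that carry ubiquitin chains. Its 20S core is a barrel of stacked rings, the outer ones built from alpha subunits, which gate the entrance, and the inner ones from beta subunits, 3 of which cut peptide bonds. The 19S regulatory particle caps the core, binds ubiquitin, removes it, and unfolds the substrate with a ring of ATPases. Interferon gamma induces replacement catalytic subunits, and an 11S cap (PA28) made of alpha and beta chains, and the resulting immunoproteasome makes peptides suited to display on MHC class I molecules. Cells of the immune system carry the immune subunits without such induction.

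The immune and the constitutive catalytic subunits occupy the same places in the core. Psmb8 (beta 5i) stands in for Psmb5, Psmb9 (beta 1i) for Psmb6 and Psmb10 (beta 2i) for Psmb7. The RefSeq promoters of both members of the beta 5 and beta 1 pairs are shown 5′ to 3′, because Psmb8 and Psmb9 hold the largest changes among the members and replace Psmb5 and Psmb6. Each runs from 250 bases before the annotated start to 50 after it, on GRCm38.p6. They lie at chr17:34197945-34198244 on the plus strand for Psmb8, at chr17:34187281-34187580 on the minus strand for Psmb9, at chr14:54617946-54618245 on the minus strand for Psmb5 and at chr11:70525107-70525406 on the plus strand for Psmb6. Capitals in Psmb8 mark the letters of the interferon gamma-activated site (GAS, TTCNNNGAA), and capitals in Psmb5 and Psmb6 mark the letters of the antioxidant response element (ARE, TGACNNNGC or TGAGNNNGC), which the Nrf1 and Nrf2 factors bind. The Psmb9 stretch held neither.
Psmb8: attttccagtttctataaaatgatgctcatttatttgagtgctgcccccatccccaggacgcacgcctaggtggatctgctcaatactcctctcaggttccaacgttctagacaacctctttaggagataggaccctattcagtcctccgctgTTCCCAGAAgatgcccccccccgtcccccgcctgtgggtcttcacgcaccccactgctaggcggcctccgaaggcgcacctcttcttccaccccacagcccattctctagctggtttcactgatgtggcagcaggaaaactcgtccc
Psmb9: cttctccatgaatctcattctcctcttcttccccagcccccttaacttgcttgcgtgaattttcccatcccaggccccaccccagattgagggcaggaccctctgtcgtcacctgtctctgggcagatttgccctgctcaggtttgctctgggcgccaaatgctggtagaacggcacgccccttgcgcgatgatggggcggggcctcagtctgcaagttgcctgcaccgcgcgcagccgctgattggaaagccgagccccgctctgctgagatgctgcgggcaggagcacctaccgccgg
Psmb5: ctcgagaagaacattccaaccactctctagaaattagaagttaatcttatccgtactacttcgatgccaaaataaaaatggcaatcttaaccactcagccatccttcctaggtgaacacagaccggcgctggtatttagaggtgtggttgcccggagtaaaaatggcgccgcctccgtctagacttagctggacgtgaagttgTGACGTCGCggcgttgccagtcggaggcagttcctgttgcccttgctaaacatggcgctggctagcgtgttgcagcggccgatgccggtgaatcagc
Psmb6: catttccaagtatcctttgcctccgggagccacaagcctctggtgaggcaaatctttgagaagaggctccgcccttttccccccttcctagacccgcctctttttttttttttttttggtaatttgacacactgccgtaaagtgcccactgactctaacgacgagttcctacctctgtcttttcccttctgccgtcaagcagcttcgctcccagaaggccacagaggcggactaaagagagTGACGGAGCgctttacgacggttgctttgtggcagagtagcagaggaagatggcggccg

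RefSeq promoters were found for 36 of the 43 genes, 39 promoters in all, and were searched on both strands. The GAS letters were in 1 of the 6 promoters of immune genes (Psmb8) and in 1 of the 33 of other members (Psmd2), against 8.30% of the 32851 mouse promoters of that length. The letters of the interferon-stimulated response element (ISRE, GAAA, any 2 bases, GAAA) were in 1 of 6 (Psme1, on the minus strand) and in 3 of 33 (Psmb3, Psmd4 and Psmd9), against 3.44% of all. The ARE letters were in 0 of 6 and in 16 of 33, against 27.8%, and the CCAAT box was in 1 of 6 (Psmb9) and in 13 of 33, against 37.4%. The ISRE letters of Psme1 stood just after the start, in this stretch of chr14:55578478-55578537 on the plus strand, with the match in capitals.
Psme1: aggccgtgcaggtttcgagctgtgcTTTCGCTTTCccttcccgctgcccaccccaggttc

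In GENCODE M21 (GRCm38), Psmb8 (chromosome 17, 34197721 to 34201454, plus strand) and Psmb9 (chromosome 17, 34181987 to 34187764, minus strand) lie 9956 bases apart in the class II region of the MHC, with Tap1 between them. Both annotated gene bodies begin before the RefSeq starts used above, so the stretches printed overlap them. Psmb9 and Tap1 overlap on opposite strands over 212 exonic bases, 5.79% of those of Psmb9, and Psmb8 shares 14.7% with the antisense gene Gm20496. The library kit does not mark strand, so reads in such stretches cannot be told apart. In all, 12 members share exonic bases with another gene, and for 5 the shared part is 10% or more (Psmd9, Psmb8, Psmb5, Psmb7 and Psmd13). Psme1 and Psme2 lie 5911 bases apart on chromosome 14.

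The deposited values are FPKM, counts of fragments divided by transcript length and by library depth. Being per length, they can be compared between genes. The spacing of low values put the depth at about 20800000 mapped fragments for vehicle 1, 19800000 for vehicle 2, 18200000 for tamoxifen 1 and 16700000 for tamoxifen 2. The groups differed far beyond the proteasome: of 11633 genes tested, 46.7% were called lower and 4.31% higher after tamoxifen (limma, adjusted p under 0.05), and the median of their log2 fold changes was -0.60. Hepatocyte markers were abundant in every library, with Alb between 26382 and 50399 FPKM, but markers of other liver cells were present and mostly lower after tamoxifen. Those of Kupffer cells and macrophages summed to 1378 and 2693 FPKM in vehicle and to 138 and 236 in tamoxifen, none at 0 in any library, and all 14 were called lower. All 9 markers of liver endothelium, all 9 of stellate cells and fibroblasts and 4 of 5 tested for cholangiocytes were also called lower. So was 1 of 3 tested for neutrophils, and no B cell marker passed the filter, while 5 of 12 hepatocyte markers were called higher. Also called lower were 5 of 5 tested for dendritic cells and 5 of 5 tested of 11 for T and NK cells. In tamoxifen 1 and 2 these lists summed to only 3.64 and 2.84 FPKM and to 2.02 and 1.98. Their markers could therefore pass the filter (at least 1 FPKM in 2 libraries) through vehicle alone, so these 2 counts were partly set by the filter. Vehicle 2 stood apart: 10 pancreatic acinar markers summed to 969 FPKM there, against 8.05 in vehicle 1 and 7.71 and 37.2 in tamoxifen 1 and 2 (0 of 9 tested were called), and 70.9% of the genes tested were higher in vehicle 2 than in vehicle 1. In a bulk sample, fewer cells of a type and less RNA per cell cannot be told apart.

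To see how the proteasome responded as a whole, all members were read from the fit over all genes. Of 43 genes, 42 passed the filter of at least 1 FPKM in 2 libraries, and 13 of these (31.0%) were called lower after tamoxifen. That share is to be read against 46.7% of all genes tested. The log2 fold change itself was below 0 for 41 of the 42. Psma8 passed the filter only through vehicle (1.06 and 1.37 FPKM, against 0.49 and 0.55 in tamoxifen). Its part in this count, and in that of groups without overlap below, was partly set by the filter. None of the 42 was called higher, against 4.31% of all genes, and none had an unadjusted p under 0.05 in that direction in limma. After rescaling of the libraries by median ratios, 1 was called lower (Psmb8, of a background of 20.3%) and 1 higher (Psmb7, of 14.6%). After quantile normalization, which gives all libraries the same distribution, 2 were called lower (Psmb8 and Psmd8, of 13.7%) and 0 higher (of 13.4%). The median log2 fold change of the members was -0.41, which is 0.20 above that of all genes. It became 0.31 with median ratios, where the median of all genes was 0.01, and -0.00036 with quantile normalization, where it was 0.09. Both tamoxifen libraries lay below both vehicle libraries for 32 of the 42 genes tested, against 71.9% of all genes tested, and above both for 0, against 9.48%. With 1 library left out, 11 members were called lower without vehicle 1, 5 without vehicle 2 (Psmb8, Psmb9, Psmd14, Psmd7 and Psmd8), 4 without tamoxifen 1 and 1 without tamoxifen 2 (Psmb8), against 47.5%, 30.5%, 26.0% and 22.0% of all genes tested. The proteasome genes held 0.338% and 0.404% of all FPKM in vehicle 1 and 2, and 0.267% and 0.232% in tamoxifen 1 and 2, so their summed share was lower in both tamoxifen libraries.

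**Figure D1:**
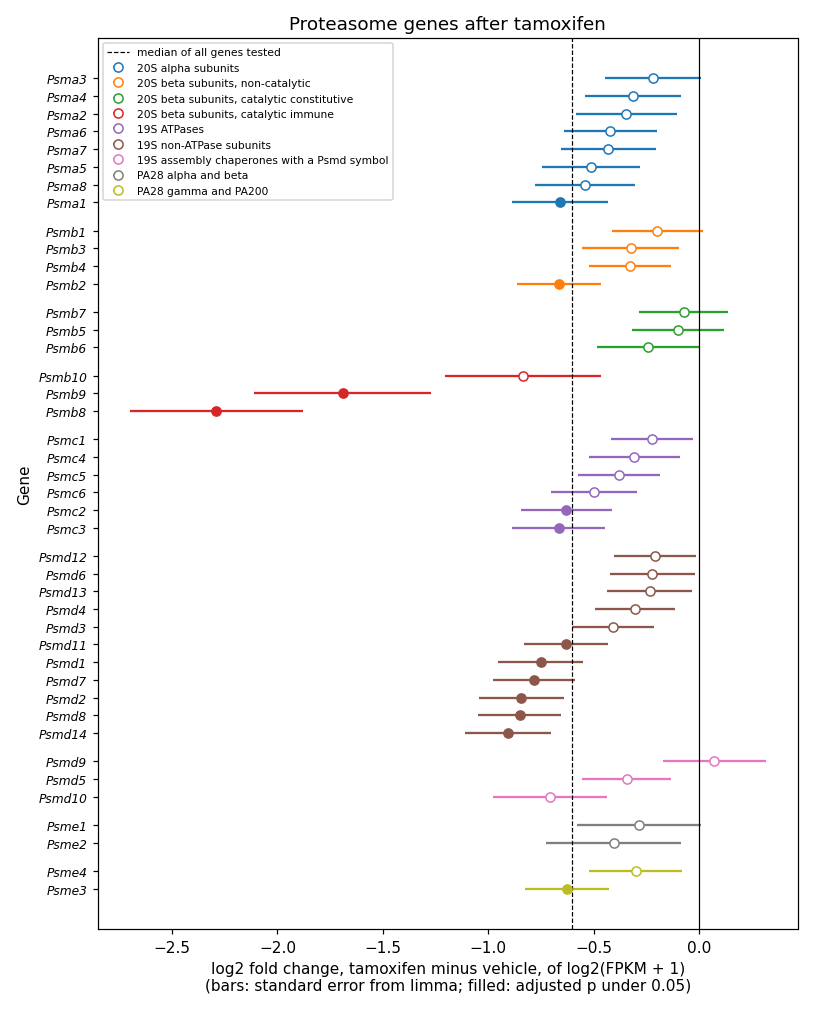
Log2 fold change (tamoxifen minus vehicle, on log2(FPKM + 1)) of the 42 genes tested, grouped by role, with bars for the standard error from limma and filled points for an adjusted p under 0.05. The dashed line is the median of all 11633 genes tested (-0.60), and Psmb8 and Psmb9 lie far to its left while most other genes lie to its right.

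Of the immune catalytic subunits, Psmb8 and Psmb9 fell by more than any other member tested. Psmb8, the chymotrypsin-like immune subunit, measured 18.73 and 49.70 FPKM in vehicle 1 and 2, and 6.33 and 4.71 in tamoxifen 1 and 2. The groups did not overlap, with means of 34.2 ± 21.9 and 5.52 ± 1.15 FPKM (SD, n = 2 each), and the vehicle libraries differed 2.65-fold from each other. Its log2 fold change was -2.29 (SE 0.41, adjusted p = 0.0042 in limma), -1.68 relative to the median of all genes. Psmb8 was the only member called lower under all 11 alternatives, with log2 fold changes of -1.62 (median ratios) and -1.68 (quantile normalization), -1.61 without vehicle 2 and an adjusted p of at most 0.039. In fits with 1 library left out, the library left alone in its group added no residual spread.

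Psmb9, the immune subunit at the beta 1 place, followed at a lower level. It measured 4.68 and 13.94 FPKM in vehicle and 1.94 and 1.77 in tamoxifen, so that every tamoxifen library was below every vehicle library, and the log2 fold change was -1.69 (SE 0.42, adjusted p = 0.014 in limma). The call was lost with median ratios (-1.12, adjusted p = 0.061) and with quantile normalization (-0.87, adjusted p = 0.15). It was also lost with no filter on low values (adjusted p = 0.073) and without tamoxifen 2 (-1.65). Without vehicle 2 the value was -0.99. Its SE there was 0.19, which no longer held the spread between the vehicle libraries.

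Psmb10, the trypsin-like immune subunit, did not pass the test. Its values were 9.51 and 22.07 FPKM in vehicle and 9.19 and 6.48 in tamoxifen. Vehicle 1 and tamoxifen 1 were nearly level, and only vehicle 2 stood clear. The log2 fold change was -0.83 (SE 0.37, adjusted p = 0.094), and it moved from -1.40 without vehicle 1 (adjusted p = 0.016) to -0.27 without vehicle 2 (adjusted p = 0.48).

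None of the constitutive partners passed the test. Psmb5, the chymotrypsin-like subunit, measured 45.63 and 47.86 FPKM in vehicle and 50.40 and 37.67 in tamoxifen, a log2 fold change of -0.10 (SE 0.22, adjusted p = 0.72). Psmb6, the caspase-like subunit, measured 58.41 and 84.71 in vehicle and 63.42 and 55.48 in tamoxifen (-0.24, SE 0.24, adjusted p = 0.42). Psmb7, the trypsin-like subunit, measured 47.18 and 59.79 in vehicle and 51.75 and 49.20 in tamoxifen (-0.07, SE 0.21, adjusted p = 0.79). In each of these genes the groups overlapped, and each lay above the median of all genes, by 0.51, 0.36 and 0.53 on the log2 scale. With median ratios Psmb7 was called higher (0.65, adjusted p = 0.033).

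**Figure D2:**
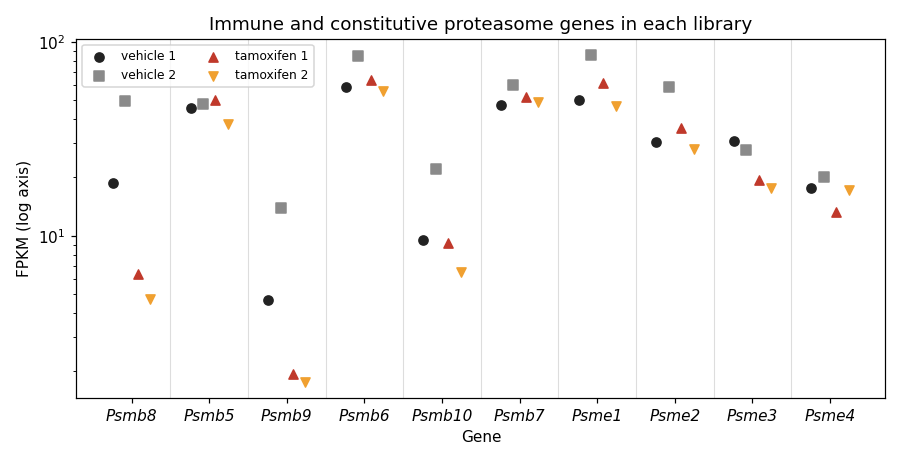
FPKM (log axis) of the immune members, the constitutive catalytic subunits and the other activators in each of the 4 libraries. Psmb8 and Psmb9 are lower in both tamoxifen libraries than in both vehicle libraries, and vehicle 2 is the highest library for all 5 immune members.

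Because both genes of a pair are read in the same library, their ratio does not depend on a single scaling factor per library. Quantile normalization can change such ratios, and they were not recomputed under it. The Psmb8 to Psmb5 ratio was 0.410 and 1.04 in vehicle 1 and 2, and 0.126 and 0.125 in tamoxifen 1 and 2. Psmb8 thus made up 29.1% and 50.9% of the FPKM of its pair in vehicle and 11.2% and 11.1% in tamoxifen, a log2 difference of -2.38. The Psmb9 to Psmb6 ratio was 0.0801 and 0.165 in vehicle and 0.0306 and 0.0319 in tamoxifen, with Psmb9 at 7.42% and 14.1% of its pair against 2.97% and 3.09% (-1.88 on the log2 scale). The Psmb10 to Psmb7 ratio was 0.202 and 0.369 in vehicle and 0.178 and 0.132 in tamoxifen, with Psmb10 at 16.8% and 27.0% against 15.1% and 11.6% (-0.83). In all 3 pairs the tamoxifen libraries lay below the vehicle libraries. An exact permutation test of 2 against 2 libraries, two-sided, cannot give a p below 0.333, and each pair gave that smallest value (0.50 adjusted by Benjamini-Hochberg over 6 ratios). Without vehicle 2 the log2 differences were -1.71, -1.36 and -0.40. Over the 3 pairs together, the immune subunits held 17.9% and 30.8% of the catalytic FPKM in vehicle and 9.54% and 8.34% in tamoxifen.

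**Figure D3:**
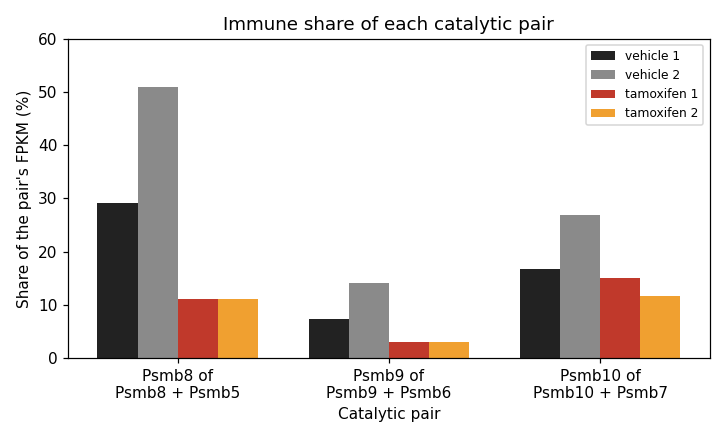
Share of each catalytic pair's FPKM (percent) held by its immune member, one bar for each library. The shares are lowest in the tamoxifen libraries for every pair, and the vehicle libraries differ from each other as well (29.1% and 50.9% for Psmb8).

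Neither gene of the immune cap passed the test. Psme1, which encodes PA28 alpha, measured 49.87 and 85.39 FPKM in vehicle and 61.35 and 46.51 in tamoxifen (log2 fold change -0.28, SE 0.29, adjusted p = 0.43). Psme2, for PA28 beta, measured 30.35 and 58.75 in vehicle and 35.77 and 28.03 in tamoxifen (-0.41, SE 0.32, adjusted p = 0.31). In both, tamoxifen 1 lay between the vehicle libraries. Without vehicle 1, Psme2 was called lower (-0.87, adjusted p = 0.040). A close copy of Psme2 outside the rule, Psme2b, was listed at 1.60 and 4.43 FPKM in vehicle and at 0.08 and 0.45 in tamoxifen, and reads shared by such copies could have been divided between them.

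Psme3 encodes PA28 gamma, the nuclear activator that forms a cap by itself. It measured 30.66 and 27.58 FPKM in vehicle and 19.38 and 17.67 in tamoxifen, and it fell by 0.62 on the log2 scale (SE 0.20, adjusted p = 0.033), although with median ratios the value was 0.08. Psme4, for the activator PA200, measured 17.73 and 20.08 in vehicle and 13.25 and 17.27 in tamoxifen (-0.30, adjusted p = 0.28). The Psme1 to Psme3 ratio was 1.63 and 3.10 in vehicle and 3.17 and 2.63 in tamoxifen (exact permutation p = 0.67), and the Psme2 to Psme3 ratio 0.990 and 2.13 against 1.85 and 1.59 (exact permutation p = 1.0). Adjusted over the 6 ratios these were 0.80 and 1.0. Both ratios overlapped between the groups. The alpha to beta chain ratio, Psme1 to Psme2, stayed between 1.45 and 1.72 in all libraries, with both tamoxifen values above both vehicle values (exact permutation p = 0.333, the smallest possible).

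Averaged over the 5 immune members and the 37 others tested, the immune members lay 1.13 and 0.14 below the others on the log2(FPKM + 1) scale in vehicle 1 and 2, and 1.23 and 1.37 below in tamoxifen 1 and 2. The difference from vehicle to tamoxifen was -0.67, with a pooled SD between libraries of 0.50, and no test was made of this score. It was -0.17 without vehicle 2 and -1.16 without vehicle 1. The 2 vehicle libraries thus differed from each other by more than vehicle 1 differed from either tamoxifen library.

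The vehicle libraries also differed from each other in the immune members. All 5 immune members had more FPKM in vehicle 2, from 1.71-fold (Psme1) to 2.98-fold (Psmb9), with a median of 2.32-fold. The other 37 members tested ranged from 0.834-fold (Psmc4) to 1.45-fold (Psmb6), with a median of 1.09-fold, and so their range did not reach that of the immune members. Between the tamoxifen libraries, tamoxifen 2 was lower than tamoxifen 1 for all 5 immune members (0.705-fold for Psmb10 to 0.912-fold for Psmb9), within the range of the others (0.605-fold for Psmd10 to 1.48-fold for Psmd9).

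Most genes of the interferon response were lower after tamoxifen too, and higher in vehicle 2 than in vehicle 1. In the interferon gamma pathway, 15 of 18 genes tested were called lower after tamoxifen, against 46.7% of all genes tested (median log2 fold change -1.58, all genes -0.60). All 20 listed were higher in vehicle 2 than in vehicle 1, against 70.9% of all genes tested. The largest falls were those of Irf8, a transcription factor of myeloid cells (14.73 and 35.52 FPKM in vehicle, 2.21 and 2.23 in tamoxifen, -2.90), and of the chemokines Cxcl9 (-2.85) and Cxcl10 (-2.66). Of the most abundant, the kinase Jak1 fell (-1.44), and Iigp1, a GTPase, overlapped between groups (113.27 and 132.31 in vehicle, 153.85 and 85.40 in tamoxifen). Irf1, which drives Psmb8 and Psmb9 in interferon-treated cells, was picked after its values were seen. It measured 26.55 and 60.08 in vehicle and 35.78 and 11.72 in tamoxifen, with overlap (-0.92, adjusted p = 0.17). Among other interferon-stimulated genes, 18 of 20 were called lower, against the same 46.7% (median -2.03), led by Oasl2 (-3.66), Ifit3 (-3.33) and Ifit2 (-3.10). The abundant Irf7 (-2.04) and Bst2 (-1.18) fell as well. With median ratios 9 of the interferon gamma genes and 11 of the others were called lower, against 20.3% of all genes tested, and with quantile normalization 8 and 6, against 13.7%. The medians of both lists stayed below 0 with median ratios (-0.92 and -1.44) and with quantile normalization (-0.93 and -1.35).

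Peptides cut by the immunoproteasome are carried to MHC class I by the TAP transporter. In that pathway 6 of 12 genes were called lower, a share close to the 46.7% of all genes tested, and the median of -0.66 was close to that of all genes. All 12 were higher in vehicle 2 than in vehicle 1, against 70.9% of all genes tested. Tap1, the neighbour of Psmb9, measured 8.42 and 28.77 FPKM in vehicle and 3.59 and 3.19 in tamoxifen (-1.93, adjusted p = 0.013), and Tap2 measured 8.18 and 15.19 against 3.23 and 4.02 (-1.40). The class I heavy chain H2-D1 also fell (-1.32), but the light chain B2m (1266 and 1673 against 1026 and 915 FPKM, -0.59, adjusted p = 0.12) and H2-K1 (-0.58, adjusted p = 0.11) did not pass the test. With median ratios 0 of the 12 were called lower, against 20.3% of all genes tested, and the list's median was 0.08. With quantile normalization 3 were, H2-D1, B2m and H2-K1, against 13.7% of all genes tested, at a median of -0.63.

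Markers of macrophages, T and NK cells and dendritic cells moved with Psmb8 and Psmb9 between the groups and between the vehicle libraries. Not every list did so. Among 7 neutrophil markers, both tamoxifen libraries lay below both vehicle libraries for 2, and vehicle 2 exceeded vehicle 1 for 5. The groups overlapped for 9 of 10 pancreatic acinar markers. Kupffer cell and macrophage markers were higher in vehicle 2 than in vehicle 1 for 14 of 14 genes (median 0.98 on the log2 scale), T and NK cell markers for 11 of 11 (summed FPKM 10.4 and 44.0 in vehicle, 2.02 and 1.98 in tamoxifen) and dendritic cell markers for 6 of 6 (48.0 and 97.2, then 3.64 and 2.84). Between the tamoxifen libraries, the macrophage sum was higher in tamoxifen 2 (236 against 138 FPKM), and the T and NK cell sum, the dendritic cell sum and Psmb8 (4.71 against 6.33) were lower there. The part of these cells in the fall of Psmb8 and Psmb9 was not tested.

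**Figure D4:**
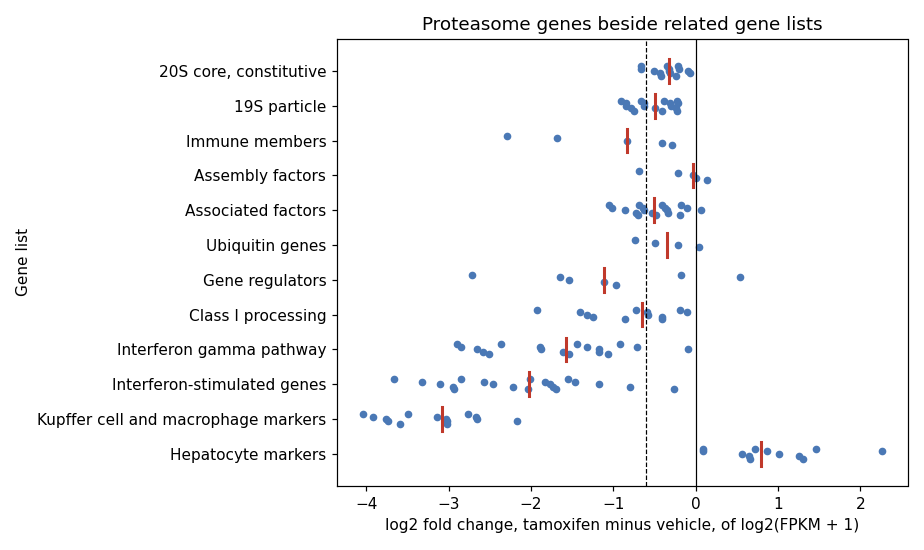
Log2 fold change (tamoxifen minus vehicle, on log2(FPKM + 1)) of each gene tested in 12 lists, with a red bar at each list's median and a dashed line at the median of all genes (-0.60). The medians of the 20S and 19S lists lie right of the dashed line and those of the interferon lists to its left, as do all macrophage markers.

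In the constitutive 20S core few genes passed the test. Of its 14 genes 2 were called lower, Psma1 and Psmb2, against 46.7% of all genes tested. The log2 fold changes of the 14 were all below 0, with a median of -0.33. That median became 0.40 with median ratios and -0.02 with quantile normalization. Tamoxifen lay below vehicle without overlap in 7 of the 14, against 71.9% of all genes tested. Psma1, an alpha ring subunit, measured 54.00 and 66.33 FPKM in vehicle and 42.74 and 32.93 in tamoxifen (-0.66, SE 0.23, adjusted p = 0.042). Psmb2, a structural beta subunit, measured 70.40 and 75.03 against 48.13 and 42.98 (-0.66, SE 0.20, adjusted p = 0.026). With median ratios both values were 0.06. In vehicle 2 all 14 genes exceeded vehicle 1, by 1.04-fold (Psmb4) to 1.45-fold (Psmb6), against 70.9% of all genes tested.

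Each subunit of the core takes its own place in the ring, and the levels of the genes were of the same order. The lowest of the 14 was Psma2 in every library (22.38, 28.57, 23.01 and 16.86 FPKM) and the highest Psma4 (89.44, 99.60, 88.42 and 64.80), a span of 3.49-fold to 4.0-fold within a library. The 7 constitutive beta genes were closer, with a span of 1.56-fold to 1.96-fold. Psma3, Psma5, Psma6 and Psma7 measured between 31.94 and 92.29 FPKM in vehicle and between 23.76 and 65.52 in tamoxifen, and Psmb1, Psmb3 and Psmb4 between 39.57 and 80.65 and between 34.11 and 65.28. None of these 7 genes, nor Psma2 or Psma4, passed the test. Subunits made in other tissues were low. Psma8, the alpha subunit of spermatogenic cells, measured 1.06 and 1.37 FPKM in vehicle and 0.49 and 0.55 in tamoxifen (-0.54, adjusted p = 0.090). Psmb11, the catalytic subunit of the thymic cortex, measured 0.05, 0.06, 0.01 and 0.00 FPKM and was not tested.

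**Figure D5:**
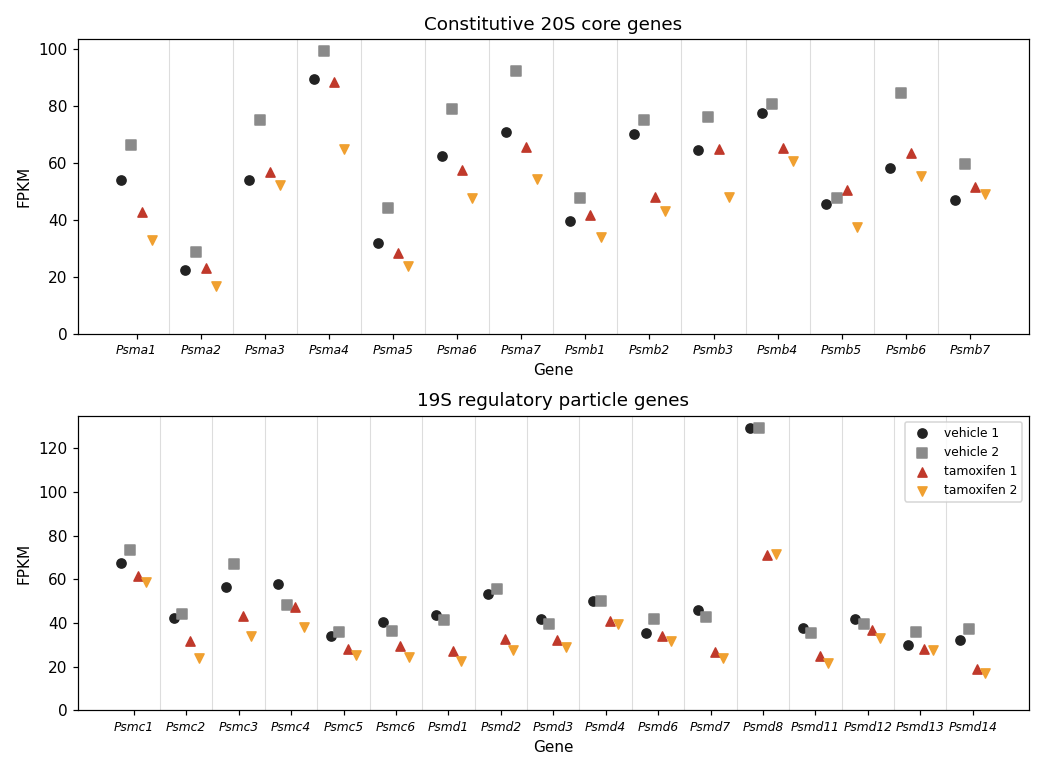
FPKM of the 14 constitutive 20S genes (top) and the 17 genes of the 19S particle (bottom) in each library. In the 19S particle both tamoxifen libraries lie below both vehicle libraries for all 17 genes, with Psmd8 the highest, and in the 20S core they do so for 7 of 14.

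The 19S particle is represented by 17 genes, 6 for ATPases and 11 for other subunits. Of the 17, 8 were called lower, against 46.7% of all genes tested, which is about the same share. The median log2 fold change was -0.50, which became 0.21 with median ratios and -0.04 with quantile normalization. Both tamoxifen libraries lay below both vehicle libraries for all 17, against 71.9% of all genes tested, and the 2 vehicle libraries lay close to each other (0.834-fold for Psmc4 to 1.19-fold for Psmd13). Whether the particle differed from the 20S core in its response was not tested.

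Of the ATPases, which unfold the substrate and open the gate of the core, 2 of 6 were called lower, against 46.7% of all genes tested. Psmc3 measured 56.38 and 66.84 FPKM in vehicle and 43.34 and 33.87 in tamoxifen (-0.67, SE 0.22, adjusted p = 0.037). Psmc2 measured 42.48 and 44.31 against 31.87 and 24.01 (-0.63, SE 0.22, adjusted p = 0.043). Both values turned above 0 with median ratios (0.06 and 0.08). Psmc1, Psmc4, Psmc5 and Psmc6 did not pass the test, at -0.22, -0.31, -0.38 and -0.50.

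Of the 11 subunits that are not ATPases, 6 were called lower, against 46.7% of all genes tested, and the median of the 11 was -0.63, close to that of all genes. Psmd14, the deubiquitinase that removes ubiquitin chains as the substrate enters, measured 32.18 and 37.41 FPKM in vehicle and 19.12 and 17.01 in tamoxifen (-0.91, SE 0.20, adjusted p = 0.0095). Psmd8, a subunit of the lid, was the most abundant gene of the particle and the most even between replicates, at 129.39 and 129.43 in vehicle and 71.10 and 71.49 in tamoxifen (-0.85, SE 0.20, adjusted p = 0.010). Psmd7, the inactive partner of Psmd14, measured 45.96 and 42.82 against 26.68 and 24.14 (-0.78, adjusted p = 0.014). These 3 lid genes each kept their groups apart.

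Psmd2 and Psmd1, the large scaffold subunits of the base, fell as well. Psmd2 measured 53.19 and 55.65 FPKM in vehicle and 32.45 and 27.52 in tamoxifen (-0.84, adjusted p = 0.012), and Psmd1 measured 43.68 and 41.31 against 27.22 and 22.65 (-0.75, adjusted p = 0.019). Psmd11, a lid subunit, measured 37.76 and 35.44 against 24.79 and 21.83 (-0.63, adjusted p = 0.031). With median ratios none of the 6 was called: Psmd14, Psmd8, Psmd2, Psmd7 and Psmd1 ranged from -0.20 to -0.04, and Psmd11 was at 0.08. Psmd3, Psmd4, Psmd6, Psmd12 and Psmd13 did not pass the test, with log2 fold changes from -0.41 to -0.21. Psmd4, which encodes the ubiquitin receptor Rpn10, averaged 49.99 in vehicle, with an SD of 0.014, and 40.3 ± 1.09 in tamoxifen (SD, n = 2 each).

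The geometric mean of the 17 genes of the 19S particle was 46.2 and 47.0 FPKM in vehicle and 34.2 and 30.3 in tamoxifen, and that of the 14 constitutive 20S genes was 53.2 and 65.1 against 50.7 and 41.9. Their ratio, chosen after seeing the values, was 0.868 and 0.723 in vehicle and 0.674 and 0.722 in tamoxifen. Vehicle 2 and tamoxifen 2 were level in this ratio.

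The 3 Psmd genes that encode assembly chaperones of the 19S base are not part of the finished particle. Psmd5 measured 12.42 and 11.91 FPKM in vehicle and 10.32 and 8.52 in tamoxifen (-0.34, adjusted p = 0.20). Psmd10, also known as gankyrin, measured 6.37 and 8.13 against 5.14 and 3.11 (-0.71, adjusted p = 0.061). Psmd9 was the only member with a value above 0 (0.07, adjusted p = 0.82), at 12.76 and 11.14 in vehicle and 10.33 and 15.29 in tamoxifen. It shares 25.5% of its exonic bases with the opposite-strand gene Gm26745. Of the separate assembly factors, none of 5 passed the test: Psmg1 to Psmg4, which build the alpha ring, lay between -0.21 and 0.13, and Pomp, which helps the beta subunits mature, measured 48.44 and 74.26 in vehicle and 48.43 and 28.16 in tamoxifen (-0.68, adjusted p = 0.10). With median ratios 3 of these 5 were called higher, against 14.6% of all genes tested.

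Proteins that bind the particle were read from a separate list. Of 18 proteasome-associated factors 8 were called lower, a share close to the 46.7% of all genes tested, with a median of -0.51. None was called lower with median ratios (median 0.18) or with quantile normalization (0.08), against 20.3% and 13.7% of all genes tested. Zfand5, a stimulator of the 26S proteasome, measured 32.74 and 49.05 FPKM in vehicle and 23.81 and 14.88 in tamoxifen (-1.05, adjusted p = 0.021). The shuttle factor Ubqln2 fell by 1.02 on the log2 scale (adjusted p = 0.0076), and the deubiquitinase Usp14 by 0.85 (adjusted p = 0.011). The most abundant were Vcp, the p97 segregase, which measured 107.83 and 106.72 against 75.32 and 58.03 (-0.69, adjusted p = 0.031), and Txnl1, which did not pass the test (-0.40, adjusted p = 0.13). None of the 4 ubiquitin genes passed it. Ubb, a polyubiquitin gene, measured 595 and 757 FPKM in vehicle and 488 and 466 in tamoxifen (-0.49, adjusted p = 0.13), and it was called lower with quantile normalization (-0.94). In all, 2 of the 4 ubiquitin genes were called lower with quantile normalization, against 13.7% of all genes tested. With median ratios 1 was called higher, against 14.6%.

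Of 7 regulators of proteasome genes 5 were called lower, against 46.7% of all genes tested, among them the transcription factors that bind the ARE. Nfe2l1 (Nrf1), which raises proteasome genes when the proteasome is inhibited, averaged 45.7 ± 0.849 FPKM in vehicle and 15.6 ± 6.21 in tamoxifen (SD, n = 2 each, log2 fold change -1.54, SE 0.28, adjusted p = 0.0042). Its call was lost with median ratios (-0.84, adjusted p = 0.051) and held with quantile normalization (-1.05). Nfe2l2 (Nrf2), the factor of the oxidative stress response, measured 73.65 and 101.50 against 17.81 and 8.44 (-2.71, SE 0.34, adjusted p = 0.0013). The groups of both lay well apart. Their small Maf partners Maff (-1.65), Mafg (-1.11) and Mafk (-0.97) were also called lower. With median ratios Nfe2l2 (-2.01) and Maff (-1.05) were still called. Of the enzymes that activate Nrf1, the protease Ddi2 measured 30.74 and 28.51 against 38.93 and 48.46 (0.54, adjusted p = 0.063), and was called higher with median ratios (1.25) and with quantile normalization (0.99). The glycanase Ngly1 did not pass the test (-0.18, adjusted p = 0.48). Over the 7 regulators the median was -1.11, or -0.43 with median ratios and -0.48 with quantile normalization.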

How the data were processed

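RNA of hepatocytes was sequenced in 2 vehicle and 2 tamoxifen libraries. The deposited FPKM were computed by the authors. Their processing notes list HISAT2, RSEM, Bowtie2, fastp 0.18.0 and StringTie 1.3.1 without roles. Genome build and annotation: not given in the sources used here. As the files hold FPKM and no counts, mapped fragments were inferred from the steps between low values, with gene lengths, positions and overlaps from GENCODE M21 (GRCm38), to which 22255 of 22298 gene IDs matched. Promoters came from RefSeq (GRCm38.p6), and 7 members had no entry there.

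Log2(FPKM + 1) was fitted with limma 3.58.1 in R 4.3.3 (lmFit, eBayes with trend) over the 11633 genes that reached 1 FPKM in 2 or more libraries, adjusted by Benjamini-Hochberg and called at an adjusted p under 0.05, two-sided, with no block. Fold changes are on the log2(FPKM + 1) scale, which understates those of low genes. Ratios within a library used FPKM without a pseudocount and exact permutation tests (scipy 1.17.1). Alternatives were median ratios, quantile normalization, a pseudocount of 0.1 FPKM, no filter, a mean of at least 5 FPKM, each library left out, a replicate block and sample weights. Every member is named or counted, as are all assembly factors and regulators. Of other pathway lists, the 3 largest changes past the threshold and the 2 most abundant genes are named, except where a gene is not reported here, and marker lists are given as sums and counts. Members and lists were chosen with earlier results of these data known, the acinar list last. Figures were drawn with matplotlib 3.10.9.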

Additional observations from a re-analysis of the deposited data

How the results depend on the processing

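The count of members called lower was 13, and it was 1 with median ratios, 2 with quantile normalization and 1 to 11 with each library left out in turn. The count called higher was 0, and 1 with median ratios. The log2 fold change was above 0 for 1 of 42 members, and for 32 with median ratios. Among members called in either setting, it turned above 0 with median ratios for Psma1 (0.061), Psmb2 (0.059), Psmb7 (0.650), Psmc2 (0.085), Psmc3 (0.055), Psmd11 (0.080) and Psme3 (0.080). The factors divided out were 1.21 and 1.38 for vehicle 1 and 2, and 0.802 and 0.752 for tamoxifen 1 and 2. Dividing by them raised tamoxifen against vehicle for every gene. Why the factors differed between the groups was not tested. The count was 13 with the lower pseudocount, 12 at a mean of at least 5 FPKM, 11 with sample weights and 10 with no filter. The log2 difference of the Psme1 to Psme3 ratio ran from -0.10 to 0.83 and that of the Psme2 to Psme3 ratio from -0.32 to 0.79 with each library left out, below 0 only without vehicle 1. A library left alone in its group is assumed to vary like the other group.

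The replicate numbers in the labels are shared by the groups. Deviations of same-numbered libraries from their group means correlated at 0.28 over all genes and at -0.28 over the members, with 2 pairs only. This does not settle whether the numbers pair the libraries, and no label says so, so they were fitted without the block. With the replicate block 15 members were called lower, with Psmb10 and Psmd10 added. With 2 libraries a group, differences near the size of the standard errors given could not be detected, and some well above them were not called. Without the block these included Psmd10 (-0.71, SE 0.27) and Psmb10 (-0.83, SE 0.37).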
